A study of Saccharomyces cerevisiae with 6 samples.

Results

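The 30 genes described here encode the enzymes, electron donors and regulators of ergosterol synthesis in the budding yeast Saccharomyces cerevisiae. They were chosen by name, from the mevalonate pathway to the esterification of the finished sterol, and each was matched through its open reading frame to a probe. All 30 had 1 probe each, among 6225 gene identifiers on the array. All 30 were well above background on all 6 arrays.

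Ergosterol is the main sterol of fungal membranes, where it takes the place that cholesterol has in animals. Its synthesis starts from acetyl-CoA, passes through mevalonate and farnesyl diphosphate to squalene, and then turns squalene into lanosterol and lanosterol into ergosterol. Several of the later enzymes use molecular oxygen, heme or iron, and the zinc cluster factors Upc2 and Ecm22 activate many of the genes when sterols run low.

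The study compared glycolaldehyde-treated and untreated cells, with 3 samples each and 1 single-colour Agilent array per sample. Glycolaldehyde is a small reactive hydroxyaldehyde. The treated cells of strain BY4743 stood for 4 h at 30 °C without shaking in synthetic 2% glucose medium containing 10 mM of it. The untreated cells were the same strain in the same medium and conditions without the aldehyde. The labels describe RNA from 3 independent starter cultures. They call the growth anaerobic in one entry and static in another, so the oxygen supply, on which sterol synthesis depends, is not settled by them. By one reading of the growth protocol the aldehyde was already present in the overnight culture. Samples were grouped by title and by treatment entry. The free-text description of all 6 samples says the reverse, and following it would turn every sign given here.

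BY4743 is known as a diploid of the S288C lineage, although the ploidy entry reads haploid. LEU2, URA3 and HIS3, which are inactivated in BY strains such as BY4743, were well above background on 0 of 6 arrays. MET15 and LYS2, known as heterozygous in BY4743, were well above background on all 6 arrays. All 12 listed haploid-specific or mating-type-specific genes were well above background on all 6 arrays, with signals from 0.00587 (HO) to 0.252 (STE4) times the 75th percentile of the array. With glycolaldehyde 5 of the 12 rose and 0 fell, where 29.6% of all tested genes were higher and 23.5% lower. With the replicate number as a block 7 rose and 1 fell. No array had a saturated spot (0 in all). On each array 94.8% to 97% of the probes were well above background, so that flag on the 12 genes does not settle the ploidy.

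The deposited files disagree on the arrays of some samples. Every column of the authors' value table equals the spot means of 1 scanner file, but for 3 of 6 samples that file is attached to another sample. The 2 records put 4 arrays in the same group and 2 in opposite groups. The values here use the value table, as the rule for these genes asks. This choice decides whether anything is called. With the scanner files as attached, limma called 0 of 5924 genes (0%; 134 had an unadjusted p under 0.05) and 0 of the 30 sterol genes (also 0 at an unadjusted p under 0.05). The smallest adjusted p of any gene was then 0.919. Results from the 4 arrays with the same group in both records are therefore given beside those of the called sterol genes, and for related genes as counts and wherever a call was lost.

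Signals are given as multiples of the 75th percentile of all probes on the same array, so a change is relative to the rest of the array and not an amount per cell. Changes are log2 differences, glycolaldehyde minus untreated, with the moderated SE of limma (n = 3 arrays per group), and adjusted p is its Benjamini-Hochberg value over 5944 genes. The 95% intervals are from the fit without pairs, so a shift shared by same-numbered arrays counts in them as spread. A signal cannot be set against that of another gene, because probes differ in brightness for reasons other than the RNA.

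With glycolaldehyde the sterol genes did not move as a block: 7 rose, 9 fell and 14 did not pass at an adjusted p of 0.05. The largest rise was that of ARE2, 1.66-fold, and the largest fall that of ECM22, 1.55-fold, and 0 of the 30 reached a log2 change of 1. The genes of the steps from acetyl-CoA to mevalonate did not pass, the squalene epoxidase gene ERG1 and the reductase gene NCP1 fell, and ERG5, ERG27 and ERG29 rose. The called share, 16 of 30 or 53.3%, was close to that of all tested genes. Among those, 53.1% were called (29.6% higher and 23.5% lower), and 3.18% were called with a log2 change of at least 1. The median log2 change of the sterol genes was -0.03, against 0.03 over all genes, and the median absolute change 0.199, against 0.221. The 3 glycolaldehyde arrays did not overlap the 3 untreated arrays for 21 of the 30 genes (9 higher, 12 lower), which is 70%, against 60.9% of all tested genes. In this fit, which leaves out pairing, the count of calls is thus near the background and says nothing particular about sterol genes. With the replicate number as a block the sterol calls stayed at 16 of 30. Over all 5944 genes 2174 were then higher and 1730 lower, so the sterol share was below that of all genes. The changes are given step by step below. The steps hold 2 to 7 genes each, and no step was tested as a set or compared with the background.

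**Figure D1:**
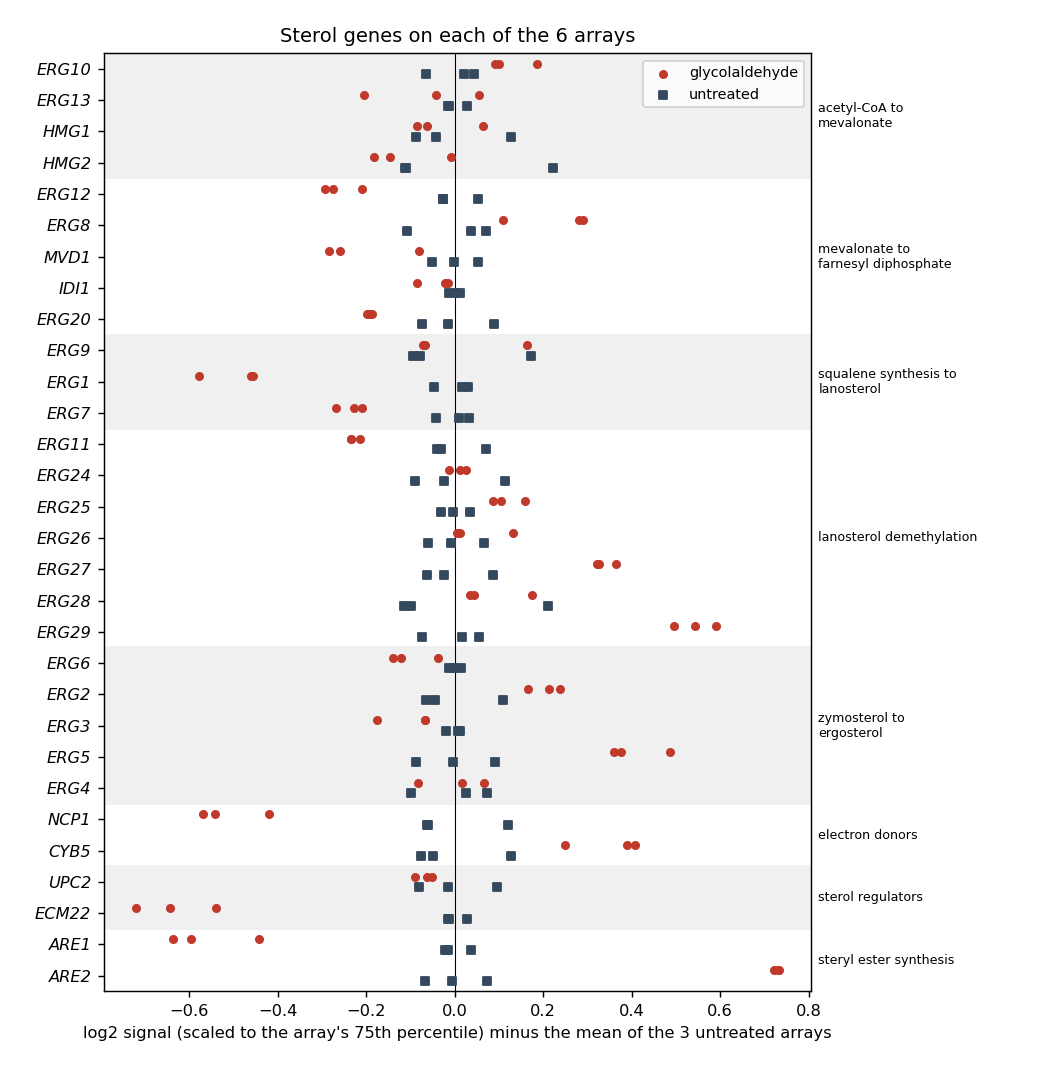
Log2 signal of the 30 sterol genes on each array, minus the mean of the 3 untreated arrays (x axis; glycolaldehyde circles above, untreated squares below), in pathway order down the page. ARE2, ERG29, ERG5 and ERG27 lie wholly to the right and ECM22, ARE1, NCP1 and ERG1 wholly to the left, while HMG1, ERG9, ERG24 and ERG4 overlap.

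The first steps make mevalonate and include HMG-CoA reductase, the enzyme through which the pathway is mainly controlled. Of these 4 genes 0 passed. HMG1, the reductase gene known for expression in oxygen, had signals of 1.498, 1.52 and 1.66 on the glycolaldehyde arrays and 1.545, 1.497 and 1.74 on the untreated arrays. Its paralog HMG2 had 2.54, 2.605 and 2.87 with glycolaldehyde and 2.67, 2.67 and 3.37 untreated. For both, the third array of each group was the highest and the groups overlapped. The log2 changes were -0.03 (95% interval -0.20 to 0.15) for HMG1 and -0.11 (-0.35 to 0.12) for HMG2. With the replicate number as a block the SE of HMG1 was 0.05, against 0.08, and that of HMG2 0.06, against 0.10. Neither gene passed in that fit (adjusted p = 0.624 and 0.112). ERG10, acetoacetyl-CoA thiolase, had a log2 change of 0.13 ± 0.06 (adjusted p = 0.101), with no overlap between the groups. ERG13, HMG-CoA synthase, had one of -0.06 (95% interval -0.23 to 0.11).

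Between mevalonate and farnesyl diphosphate, 3 of 5 genes fell and 1 rose. ERG12, mevalonate kinase, had signals of 0.373, 0.368 and 0.39 with glycolaldehyde and 0.443, 0.468 and 0.443 untreated. Every glycolaldehyde array was below every untreated one, and the log2 change was -0.26 ± 0.05 (adjusted p = 0.00528).

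ERG8, phosphomevalonate kinase, which acts directly after Erg12, went the other way. Its signals were 1.29, 1.28 and 1.14 with glycolaldehyde and 1.08, 1.11 and 0.977 untreated, with no overlap and a log2 change of 0.23 ± 0.08 (adjusted p = 0.0359). MVD1, mevalonate diphosphate decarboxylase, had 1.02, 1.04 and 1.17 with glycolaldehyde and 1.198, 1.29 and 1.24 untreated. It fell by 0.21 ± 0.07 (adjusted p = 0.0373), with the third glycolaldehyde array nearly level with the lowest untreated one.

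ERG20, farnesyl diphosphate synthase, makes the last intermediate shared with dolichol, ubiquinone and protein prenylation. It had signals of 5.63, 5.66 and 5.61 with glycolaldehyde and 6.12, 6.37 and 6.85 untreated, and fell by 0.19 ± 0.06 (adjusted p = 0.0259). The untreated arrays were all higher and also the more spread. IDI1, isopentenyl diphosphate isomerase, had a log2 change of -0.04 (95% interval -0.16 to 0.08).

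The calls of ERG8, MVD1 and ERG20 were lost in the 4 agreed arrays, at adjusted p of 0.194, 0.15 and 0.108, while ERG12 kept its call there (0.0248). ERG8 was also lost without untreated replicate 1 or 3 (adjusted p = 0.0684 and 0.0756) and without glycolaldehyde replicate 1 or 2 (0.121 and 0.119). MVD1 was lost without any one of the untreated replicates (0.0564 to 0.121) or glycolaldehyde replicates 1 or 2 (0.133 and 0.125). Its call was also lost with normexp background correction (0.0563). ERG20 was lost without untreated replicate 2 or glycolaldehyde replicates 1 or 2 (0.0638, 0.0784 and 0.0745). With quantile normalization ERG20 had a log2 change of -0.09 (adjusted p = 0.206).

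From farnesyl diphosphate to lanosterol, 2 of 3 genes fell. ERG9, squalene synthase, the first step committed to sterols, had signals of 2.52, 2.52 and 2.97 with glycolaldehyde and 2.51, 2.48 and 2.98 untreated. The third array of each group stood above the others, and the log2 change was 0.01 (95% interval -0.22 to 0.23). With the replicate number as a block the SE of ERG9 was 0.05, against 0.10, and it did not pass (adjusted p = 0.881). ERG1, squalene epoxidase, uses molecular oxygen and is the target of the antifungal terbinafine. Its signals were 2.30, 2.50 and 2.51 with glycolaldehyde and 3.51, 3.48 and 3.33 untreated. The groups were far apart, and ERG1 fell by 0.50 ± 0.06, or 1.41-fold (adjusted p = 0.000351). ERG7, lanosterol synthase, closes the rings of the epoxide that Erg1 makes. It had 1.502, 1.54 and 1.56 with glycolaldehyde and 1.82, 1.85 and 1.76 untreated, again with no overlap, and fell by 0.23 ± 0.05 (adjusted p = 0.00641). In the 4 agreed arrays ERG1 fell by 0.48 (adjusted p = 0.00224) and ERG7 fell by 0.24 (adjusted p = 0.0234).

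**Figure D2:**
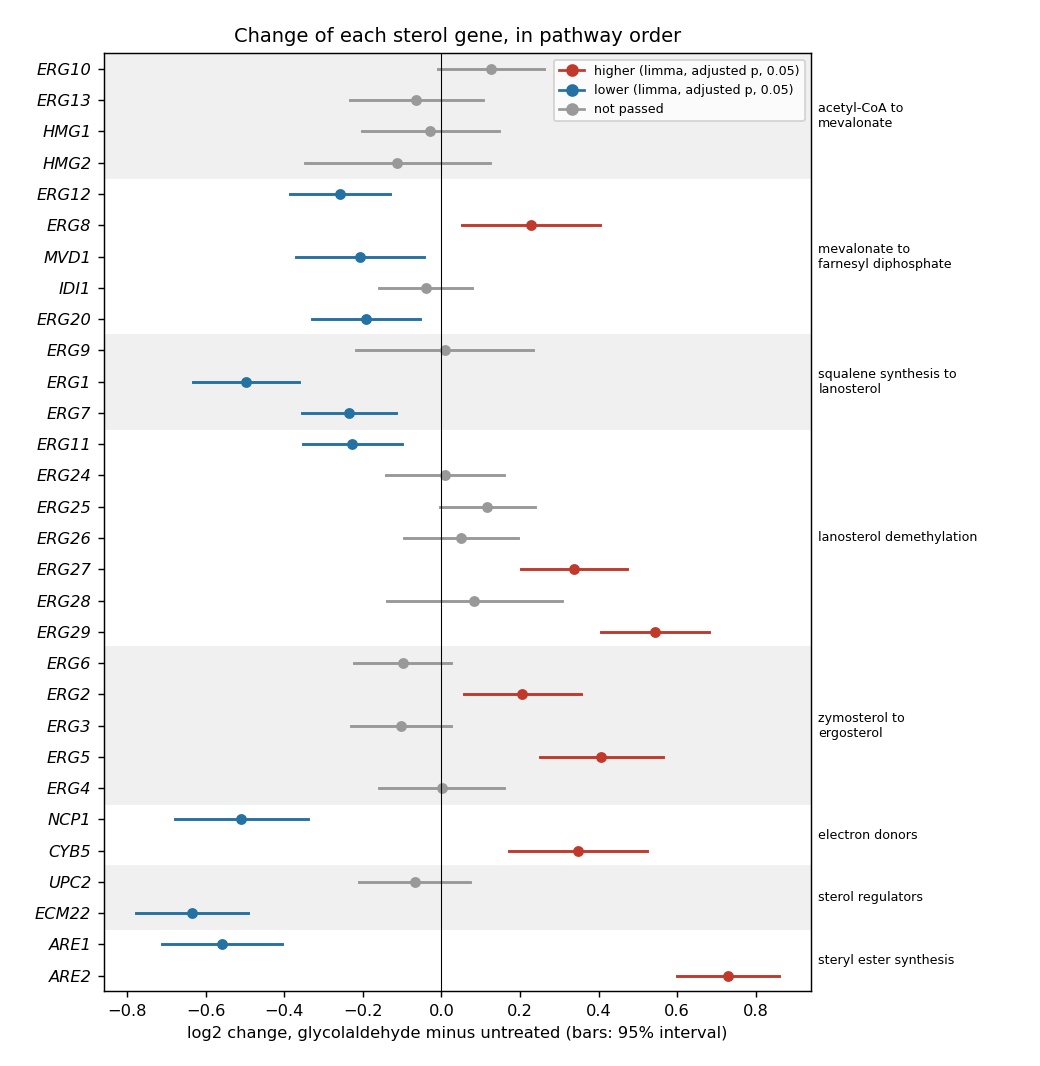
Log2 change of each sterol gene, glycolaldehyde minus untreated (x axis), with its 95% interval, in pathway order. Genes that rose are red, genes that fell blue and genes that did not pass grey; The 9 blue genes are ERG12, MVD1, ERG20, ERG1, ERG7, ERG11, NCP1, ECM22 and ARE1, and the 7 red ones ERG8, ERG27, ERG29, ERG2, ERG5, CYB5 and ARE2.

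The removal of the methyl groups of lanosterol involves 7 of the listed genes, of which 2 rose and 1 fell. ERG11, the cytochrome P450 that takes off the first methyl group and is inhibited by azole antifungals, had signals of 6.61, 6.61 and 6.70 with glycolaldehyde and 7.56, 7.60 and 8.16 untreated. It was lower on every glycolaldehyde array and fell by 0.23 ± 0.05 (adjusted p = 0.00937). In the 4 agreed arrays its log2 change was -0.19 (adjusted p = 0.0502), and with quantile normalization -0.13 (adjusted p = 0.0563).

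ERG27, the sterol keto reductase of the demethylation complex, had 4.12, 4.00 and 4.01 with glycolaldehyde and 3.06, 3.15 and 3.39 untreated. It rose by 0.34 ± 0.06, or 1.26-fold (adjusted p = 0.00214). ERG29, whose product is needed for normal ergosterol synthesis, had 0.575, 0.556 and 0.538 with glycolaldehyde and 0.363, 0.387 and 0.397 untreated. It rose by 0.54 ± 0.06, or 1.46-fold (adjusted p = 0.000242). Both were above all untreated arrays, and both kept their calls in the 4 agreed arrays (adjusted p = 0.00564 and 0.00205).

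The partners of Erg27 in that complex did not pass. ERG25, the oxygen-dependent methyl sterol oxidase, had 9.14, 8.69 and 8.81 with glycolaldehyde and 8.02, 8.17 and 8.38 untreated. The groups did not overlap, but the log2 change of 0.12 ± 0.05 missed the threshold (adjusted p = 0.0941). ERG25 passed with quantile normalization, as 0.27 (adjusted p = 0.00281), and on scan day 1 only. It also passed with scan day as a block (0.0393) and with arrays weighted by limma (0.00726), but not with the replicate number as a block (0.0721). ERG26, the sterol dehydrogenase, and ERG28, the scaffold of the complex, had log2 changes of 0.05 (95% interval -0.09 to 0.19) and 0.08 (-0.14 to 0.31). Without untreated replicate 3 the change of ERG28 was 0.19 (adjusted p = 0.0364). ERG24, the sterol reductase that acts after Erg11, had a log2 change of 0.01 (95% interval -0.14 to 0.16).

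In the last steps, from zymosterol to ergosterol, 2 of 5 genes rose. ERG5, the second cytochrome P450 of the pathway, which desaturates the side chain, had signals of 2.03, 2.05 and 2.22 with glycolaldehyde and 1.49, 1.58 and 1.69 untreated. It was higher on every glycolaldehyde array and rose by 0.41 ± 0.07, or 1.33-fold (adjusted p = 0.00173; 0.00391 in the 4 agreed arrays). ERG2, the sterol isomerase, had 13.1, 12.9 and 12.5 with glycolaldehyde and 10.6, 10.8 and 12 untreated. The third arrays lay close together, and ERG2 rose by 0.21 ± 0.06 (adjusted p = 0.0277). Its call was lost without untreated replicate 1 or 2 (adjusted p = 0.106 and 0.0954) and without glycolaldehyde replicate 1 or 2 (0.0965 and 0.0835), and kept in the 4 agreed arrays (0.0233).

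ERG3, the sterol desaturase whose loss gives azole tolerance, had 8.41, 8.41 and 7.80 with glycolaldehyde and 8.88, 8.85 and 8.69 untreated. All glycolaldehyde arrays were lower, but the log2 change of -0.10 ± 0.05 did not pass (adjusted p = 0.15). ERG6, the sterol methyltransferase, had a log2 change of -0.10 ± 0.05 (adjusted p = 0.153). ERG4, the last reductase, had one of 0.00 (95% interval -0.16 to 0.16).

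The electron donors of the oxygen-dependent steps moved in opposite directions. NCP1, the reductase that passes electrons from NADPH to the cytochromes P450 and to squalene epoxidase, had signals of 3.32, 3.38 and 3.68 with glycolaldehyde and 4.71, 4.72 and 5.35 untreated. It fell by 0.51 ± 0.07, or 1.42-fold (adjusted p = 0.00092). CYB5, cytochrome b5, an alternative electron carrier for sterol and fatty acid modification, had 0.415, 0.377 and 0.42 with glycolaldehyde and 0.306, 0.301 and 0.346 untreated. It rose by 0.35 ± 0.08, or 1.27-fold (adjusted p = 0.00598). Neither gene overlapped between the groups, and in the 4 agreed arrays their adjusted p were 0.00541 and 0.00883.

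Of the paired activators of sterol genes, ECM22 fell and UPC2 did not pass. ECM22 had signals of 0.21, 0.199 and 0.226 with glycolaldehyde and 0.325, 0.334 and 0.325 untreated. All glycolaldehyde arrays lay well below the untreated ones, and ECM22 fell by 0.63 ± 0.06, or 1.55-fold (adjusted p = 0.000151; 0.00213 in the 4 agreed arrays). UPC2 had 0.0938, 0.0944 and 0.092 with glycolaldehyde and 0.0968, 0.105 and 0.0927 untreated. Its groups overlapped, and the log2 change was -0.07 (95% interval -0.21 to 0.07).

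The paralogs that esterify sterols for storage in lipid droplets moved in opposite directions. ARE1, known for its role when oxygen is short, had signals of 0.653, 0.672 and 0.748 with glycolaldehyde and 1.00, 1.04 and 1.00 untreated. It fell by 0.56 ± 0.07, or 1.47-fold (adjusted p = 0.000357). ARE2, the main acyltransferase for ergosterol in oxygen, had 0.293, 0.296 and 0.296 with glycolaldehyde and 0.17, 0.177 and 0.187 untreated. It rose by 0.73 ± 0.06, or 1.66-fold (adjusted p = 5.48e-05). In the 4 agreed arrays the log2 changes were -0.53 (adjusted p = 0.00339) for ARE1 and 0.77 (0.000566) for ARE2.

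For the 3 pairs of related genes the log2 difference within each array was compared between the groups. The difference ARE1 minus ARE2 was 1.23 ± 0.10 with glycolaldehyde and 2.51 ± 0.08 untreated (SD, n = 3 each). The difference UPC2 minus ECM22 was -1.18 ± 0.11 with glycolaldehyde and -1.74 ± 0.07 untreated. For HMG1 minus HMG2 it was -0.77 ± 0.01 with glycolaldehyde and -0.86 ± 0.09 untreated. Between the groups the mean difference shifted by -1.29, 0.57 and 0.08. The groups did not overlap for any of the 3 pairs, but for HMG1 minus HMG2 they nearly touched, at -0.787 with glycolaldehyde and -0.789 untreated. Each pair had a two-sided exact permutation p of 0.1, adjusted over the 3 pairs 0.1. That is the smallest that 3 against 3 arrays allow, so the p does not tell a large shift from a small one. Probe sequences were not used, so signal shared between paralogs was not separated.

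**Figure D3:**
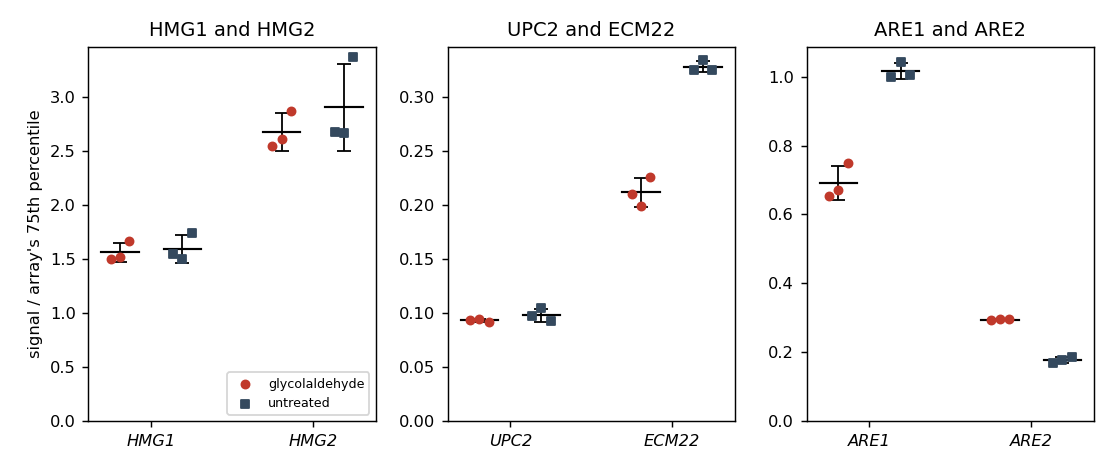
Signal of the paired genes HMG1 and HMG2, UPC2 and ECM22, ARE1 and ARE2 as a multiple of the array's 75th percentile (y axis from 0), with glycolaldehyde left and untreated right in each pair of columns. Points are arrays, lines the mean and bars the SD (n = 3); ARE1 is lower and ARE2 higher with glycolaldehyde, ECM22 is lower, and HMG1, HMG2 and UPC2 overlap.

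Scanning took 2 days, each with arrays of both groups. All 16 called genes changed in the same direction on both days, the first with 2 arrays per group and the second with 1. They were called from these same arrays, so a shared direction was to be found in most of them. Of the 14 genes that did not pass, 9 also had the same sign on both days. The untreated array of day 2 and 1 glycolaldehyde array of day 1 are those that the records put in opposite groups. ARE2 changed by 0.76 on day 1 and 0.66 on day 2, ECM22 by -0.69 and -0.53, ERG1 by -0.54 and -0.41, and NCP1 by -0.49 and -0.54. ERG2 differed more between the days, at 0.28 and 0.06, as did MVD1, at -0.27 and -0.08. In the 4 agreed arrays 6 of the 30 genes rose and 6 fell, where 48.4% of all genes were called. All 12 were called in the same direction in the 6 arrays, of which these 4 are a part, so the direction is not checked independently. Both untreated arrays of the 4 were scanned on day 1, and glycolaldehyde replicate 3 on day 2, so scan day is not balanced in them. With the scanner files as attached, 15 of the 16 genes kept the sign of their change, and ERG8 did not. That grouping shares 4 arrays with the other one, so the shared sign is no separate support. Its largest change among the sterol genes was 0.30, for ARE2 (adjusted p = 0.919).

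**Figure D4:**
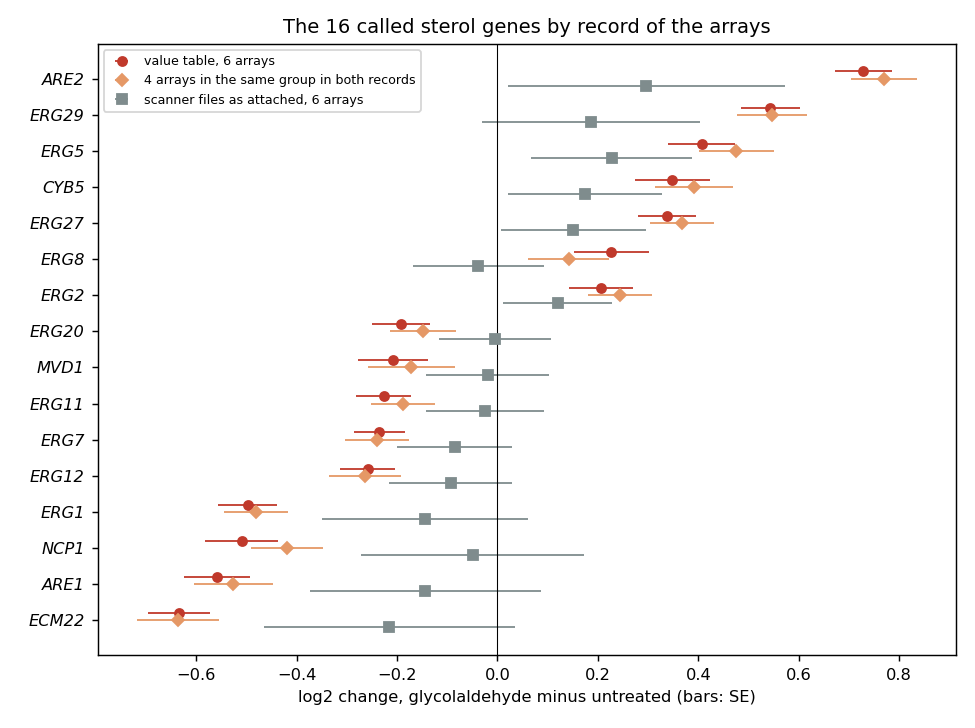
Log2 change (x axis, bars SE) of the 16 called sterol genes with the value table's grouping (red circles), in the 4 arrays that both records put in the same group (orange diamonds) and with the scanner files as attached (grey squares). Red and orange points lie close together, from -0.64 for ECM22 to 0.77 for ARE2, and grey points are nearer to 0.

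Genes around the pathway were taken from lists by function. Among 10 other regulators of sterol genes 6 fell and 3 rose (median log2 change -0.39), where 23.5% of all genes were lower and 29.6% higher. These were 6 and 2 in the 4 agreed arrays. MOT3, a repressor of hypoxic and ergosterol genes, had signals of 0.249, 0.22 and 0.248 with glycolaldehyde and 0.403, 0.416 and 0.456 untreated, and fell by 0.83 ± 0.07 (adjusted p = 0.000109). HAP1, the heme-responsive activator, which carries a transposon insertion in S288C strains, had 0.783, 0.815 and 0.887 with glycolaldehyde and 1.34, 1.32 and 1.33 untreated, and fell by 0.69 ± 0.06 (adjusted p = 0.000106). For both genes all glycolaldehyde arrays were below all untreated ones.

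Among the other regulators, CYC8, a subunit of the general corepressor with Tup1, fell by 0.62 ± 0.07, SUT2 fell by 0.46 ± 0.06 and the hypoxic repressor ROX1 fell by 0.40 ± 0.08 (adjusted p = 0.000345, 0.00066 and 0.00368). SUT1, a factor that promotes sterol uptake, had a log2 change of -0.31 ± 0.21 (adjusted p = 0.242), which passed with the replicate number as a block (adjusted p = 0.0177). NSG1 and NSG2, which stabilise the reductase Hmg2, rose by 0.44 ± 0.08 and 0.35 ± 0.08 (adjusted p = 0.00331 and 0.00845), and NSG2 did not pass in the 4 agreed arrays (0.0525). DAP1, the heme-binding partner of Erg11, rose by 0.28 ± 0.06 (adjusted p = 0.00491).

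Sterol enzymes such as Hmg2 and Erg1 are degraded from the endoplasmic reticulum, and of 11 genes of that degradation 6 rose and 0 fell (median log2 change 0.19), where 29.6% of all genes were higher. The 4 agreed arrays also gave 6 that rose, but HRD1 lost its call (adjusted p = 0.117) and UBC7 gained one (0.0224). With the replicate block 7 rose and 0 fell. SSM4, the ubiquitin ligase Doa10, which acts on Erg1, had signals of 2.35, 2.35 and 2.66 with glycolaldehyde and 1.52, 1.58 and 1.75 untreated. It rose by 0.60 ± 0.08 (adjusted p = 0.00056), with no overlap. UBC6 rose by 0.35 ± 0.06, ASI3 by 0.33 ± 0.06 and CUE1 by 0.32 ± 0.06 (adjusted p = 0.00158, 0.00368 and 0.00265).

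Of 19 genes of sterol uptake and transport 5 fell and 2 rose (median log2 change 0.02), a smaller share than the 53.1% called over all genes. On the 4 agreed arrays 4 fell and 2 rose, NPC2 having lost its call (adjusted p = 0.17), and with the replicate block 6 fell and 5 rose. OSH1 and KES1, oxysterol-binding protein homologs, fell by 0.48 ± 0.06 and 0.42 ± 0.08 (adjusted p = 0.000412 and 0.00444), AUS1, a sterol importer of anaerobic cells, fell by 0.39 ± 0.07 (0.00246) and LAM4 fell by 0.28 ± 0.06 (0.0059). YSP2, which moves sterol from the plasma membrane to the endoplasmic reticulum, rose by 0.47 ± 0.06 and ARV1 rose by 0.28 ± 0.05 (adjusted p = 0.0007 and 0.00326). DAN1, a cell wall gene known for strong induction in anaerobic cells and named here after its values were seen, had signals of 0.00644, 0.00827 and 0.0098 with glycolaldehyde and 0.00965, 0.00988 and 0.0114 untreated, with a log2 change of -0.35 ± 0.15 (adjusted p = 0.0754; 0.00493 with the replicate block).

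Of 5 genes of steryl ester hydrolysis and sterol acetylation 2 rose and 0 fell (median log2 change 0.15): the hydrolase genes TGL1 and YEH1 rose by 0.22 ± 0.06 and 0.21 ± 0.05 (adjusted p = 0.0133 and 0.0105). YEH1 did not pass in the 4 agreed arrays (0.0501), where 1 gene rose and 1 fell. With the replicate block 3 rose and 1 fell. Of 10 genes of the isoprenoid branches 2 rose and 2 fell (median 0.03). In the 4 agreed arrays 2 of these 10 rose and 1 fell, and with the replicate block 2 rose and 3 fell. The counts of both lists stand beside 29.6% of all genes higher and 23.5% lower. NUS1 and SRT1 of dolichol synthesis rose by 0.34 ± 0.06 and 0.20 ± 0.06 (adjusted p = 0.00191 and 0.0279). COX10, which farnesylates heme, fell by 0.42 ± 0.06 and RAM1, a subunit of protein farnesyltransferase, fell by 0.19 ± 0.06 (adjusted p = 0.000666 and 0.0317), and RAM1 did not pass in the 4 agreed arrays (0.0969).

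Heme is the cofactor of Erg11 and Erg5, and of 8 genes of its synthesis 3 rose and 2 fell (median log2 change 0.06). HEM1, the first enzyme, had signals of 2.04, 2.17 and 2.75 with glycolaldehyde and 3.91, 3.94 and 4.16 untreated, and fell by 0.80 ± 0.11 (adjusted p = 0.000704). HEM2, the next enzyme, had 2.02, 2.01 and 1.98 with glycolaldehyde and 1.35, 1.42 and 1.34 untreated, and rose by 0.55 ± 0.05 (adjusted p = 0.000133). HEM13, the oxygen-dependent oxidase repressed by Rox1, fell by 0.30 ± 0.07 (adjusted p = 0.00922), while HEM4 and HEM15 rose by 0.24 ± 0.07 and 0.22 ± 0.06 (0.0188 and 0.0147). On the 4 agreed arrays 2 rose and 2 fell, and HEM15 did not pass (adjusted p = 0.0585). The counts stand beside 29.6% of all genes higher and 23.5% lower.

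Of 8 genes of fatty acid and sphingolipid synthesis, among them the transcription activator genes MGA2 and SPT23, 8 fell and 0 rose (median log2 change -0.46), also in the 4 agreed arrays. FAS2, a fatty acid synthase subunit, had signals of 4.22, 4.46 and 4.78 with glycolaldehyde and 8.64, 9.60 and 8.73 untreated, and fell by 1.00 ± 0.07 (adjusted p = 3.67e-05). FAS1 fell by 0.71 ± 0.05, the acetyl-CoA carboxylase gene ACC1 fell by 0.58 ± 0.05 and MGA2, an activator of the desaturase gene OLE1, fell by 0.49 ± 0.08 (adjusted p = 5.09e-05, 0.000118 and 0.00176). These 8 genes are a list picked with earlier results of these data known, and their count stands beside the 23.5% of all genes that fell.

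**Figure D5:**
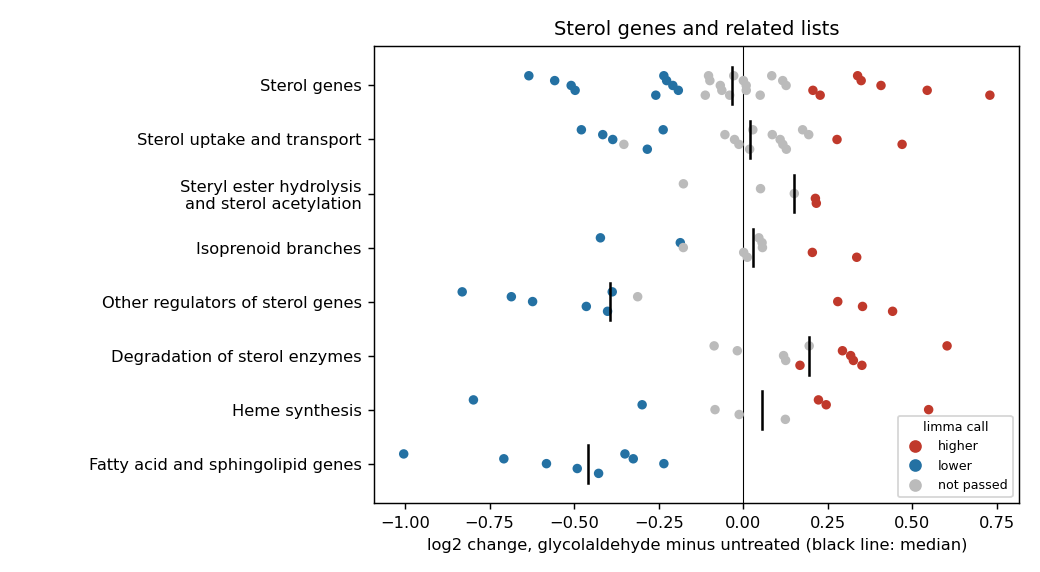
Log2 change (x axis, glycolaldehyde minus untreated) of the sterol genes and of 7 lists of related genes, 1 point per gene, coloured by the limma call, with the median as a black line. The sterol genes spread to both sides of 0 around a median of -0.03, the 8 fatty acid and sphingolipid genes all lie below 0 (median -0.46), and the genes for degradation of sterol enzymes lie mostly above it (median 0.19).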

How the data were processed

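RNA of 6 cultures, 3 per group, was measured on single-colour Agilent arrays with 6256 probes of 7 spots each. The deposited values are processed spot intensities on a linear scale, made by the authors with Agilent Feature Extraction 11.0.1.1 per the file headers. The authors' value table holds 1 intensity per probe, equal to the mean over its spots within a relative tolerance of 1e-06. The submitters' processing notes also list R 3.0.2. Median intensities were 3307 to 5055 per array, and the number of arrays limits the precision.

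Intensities were log2 transformed after division by the 75th percentile of the array, and the brightest probe stood for a gene. A gene was tested if it was well above background, in over 0.5 of its spots, on all arrays of at least 1 group. Tests used limma 3.58.1 in R 4.3.3, two-sided, with Benjamini-Hochberg adjustment over 5944 genes and a threshold of 0.05. The normexp alternative used the median spot signal with an offset of 50, in place of the mean spot signal planned. Same-numbered samples deviated together (correlations 0.32, 0.40 and 0.62 over 5944 genes, all above 0.1), which meets the limit for pairing. In both groups replicate 3 was scanned on day 2 and the others on day 1. The correlations therefore cannot tell paired cultures from a shared scan day, and samples of different number were not compared. With scan day as a block, 2294 genes were higher and 1788 lower. The values given are from the fit without pairs, and the fit with the replicate number as a block is an alternative. Its counts, or the adjusted p of the gene concerned, are printed where it changes the count of a list, and not for every gene whose call changes.

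Values on every array are given for called sterol genes and for UPC2, ECM22, HMG1, HMG2, ERG11, ERG1, ERG25 and ERG3. From 7 lists of related genes up to 4 called genes per list and direction are named, and HAP1, ROX1, MOT3, SUT1 and HEM13 in any case. The members and lists were chosen with earlier results of these data known. Promoter and probe sequences were not used here.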

Additional observations from a re-analysis of the deposited data

How the results depend on the processing

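Which record assigns the arrays decides the calls. With the scanner files as attached, 0 genes were higher and 0 lower over all genes, 0 and 0 among the sterol genes, the median log2 change of the sterol genes was 0.0275 and that of ERG8 was -0.0384, the only sign change among called sterol genes. In the 4 agreed arrays the median was 0.0315, and leaving out 1 array at a time it lay between -0.0621 and 0.0173 (its highest value without untreated replicate 3), so its sign is not settled. The cause of these moves was not tested. Under the other 19 alternatives 11 of the 16 calls were kept throughout, 5 were lost in at least 1 (ERG8, MVD1, ERG20, ERG2 and ERG11), and 5 other genes passed in at least 1 (ERG10, ERG25, ERG28, ERG6 and ERG3). Over these, 5 to 9 sterol genes were higher and 6 to 10 lower. Quantile normalization gave 9 higher and 7 lower, against 7 and 9. With the replicate block the paired fit called the same 16 sterol genes, 7 higher and 9 lower, and 2174 genes higher and 1730 lower over all genes. An analysis of scan day 1 only, chosen after seeing the data, gave 9 higher and 10 lower. With 3 arrays a group, small changes are not measured closely. The SD between the spots of a probe was 0.0230 to 0.0774 on the log2 scale.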

Other observations

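The third replicate of each group, scanned on the other day, stood apart for some sterol genes. Replicate 3 minus the mean of replicates 1 and 2 had a median log2 difference of 0.05 for the 30 sterol genes in glycolaldehyde arrays and 0.09 in untreated arrays. Over all tested genes these medians were -0.02 and -0.01. For HMG2 the difference was 0.16 in glycolaldehyde and 0.33 in untreated arrays, for ERG9 0.23 and 0.26, and for ERG28 0.13 and 0.32. The part of scan day or culture in these values was not tested.

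In the reference gene order only ERG2 and ERG12 among the 30 lay near each other, with 5 genes between them, and ERG2 rose while ERG12 fell.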
